A study of Mus musculus with 2 samples.

Results

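The cells described here are the 115 of 5976 that the authors' annotation places in subcluster 13 at clustering resolution 0.8. They were sorted as CD45-positive and JAML-positive cells from tumours of 3 mice and measured in 1 droplet single-cell RNA library with 10x Genomics 5′ chemistry. JAML is a junctional adhesion molecule-like surface protein of leukocytes, encoded by Jaml. The 3 hashtag antibodies that mark the mice are named for B16F10, a mouse melanoma line, and for an isotype control, so every mouse carries the same tumour and the same control label, and there is no treated group. Strain, sex and age are not given in the labels. In the labels the sorted cells appear as T cells, and in the extraction text as TREG. Because there is 1 group, all contrasts below were made between classes of cells inside the same mouse, and the 3 hashtags were taken as 3 mice (called mouse 1, 2 and 3).

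All 115 cells lie in the cluster that the authors named for Siglech, of 1317 cells, and they were given the working name of plasmacytoid-like cells with high Apod. Plasmacytoid dendritic cells are round, secretory dendritic cells that sense viral nucleic acids in endosomes and release type I interferon. Their identity depends on the transcription factor TCF4. Conventional dendritic cells instead display peptides on MHC class II to T cells, and transitional dendritic cells carry features of both. Apod encodes apolipoprotein D, a lipocalin that carries small lipids. Cyp7b1 encodes the oxysterol 7-alpha-hydroxylase, which takes part in making and breaking the ligands of the receptor GPR183. Pi16 encodes peptidase inhibitor 16, and Alox5 encodes 5-lipoxygenase, which starts leukotriene synthesis.

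The cells of subcluster 13 came from all 3 mice. There were 49 in mouse 1, 33 in mouse 2 and 33 in mouse 3, which is 2.0% (95% exact binomial interval 1.49 to 2.64) of the 2445 cells of mouse 1, 2.79% (1.93 to 3.89) of the 1184 cells of mouse 2 and 1.41% (0.973 to 1.98) of the 2339 cells of mouse 3. The mean share was 2.07% ± 0.690 (SD, n = 3). Of the Siglech cluster alone, they made up 7.79%, 15.3% and 7.01% in mouse 1, 2 and 3, so that mouse 2 stood above the other 2 on both denominators. These intervals cover counting error only, and a sort gate on JAML set which cells could enter.

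Depth was not the same in all classes. The median was 19176 unique molecular identifiers (UMIs, counted molecules) and 4029 genes per cell in subcluster 13, against 13257 UMIs and 3449 genes in the rest of the Siglech cluster. Levels are therefore given as CPM, the UMIs of a gene in the summed cells of each mouse scaled to a common total. A total of 2344090 UMIs stands behind subcluster 13, and 1 UMI is worth 1.01 CPM in mouse 1 and 1.60 CPM in mouse 3.

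The promoters of 3 of the 4 marker genes are shown because these genes had their highest mean in the same subcluster. The promoter of Cyp7b1 (gene at chr3:18071950-18243338, minus strand, GRCm38) is named only. Each stretch of 300 bases runs from 250 before to 50 after the annotated start (RefSeq, GRCm38.p6, 5′ to 3′ along the gene). Capitals mark 2 kinds of match, searched on both strands. One is CAGCTG, an E-box of the kind bound by E proteins such as TCF4, and the other is GGAA, any 2 bases, then GAAA, the composite of Ets and IRF sites known from the pairing of PU.1 with IRF4 or IRF8. They do not overlap each other here.
Apod, chr16:31314759-31315058, minus strand: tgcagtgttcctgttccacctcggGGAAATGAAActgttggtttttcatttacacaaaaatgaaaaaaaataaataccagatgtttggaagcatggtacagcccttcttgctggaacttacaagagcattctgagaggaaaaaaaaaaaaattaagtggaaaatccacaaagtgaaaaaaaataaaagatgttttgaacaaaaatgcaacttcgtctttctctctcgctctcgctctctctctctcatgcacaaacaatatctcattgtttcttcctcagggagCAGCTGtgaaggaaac
Pi16, chr17:29318632-29318931, plus strand: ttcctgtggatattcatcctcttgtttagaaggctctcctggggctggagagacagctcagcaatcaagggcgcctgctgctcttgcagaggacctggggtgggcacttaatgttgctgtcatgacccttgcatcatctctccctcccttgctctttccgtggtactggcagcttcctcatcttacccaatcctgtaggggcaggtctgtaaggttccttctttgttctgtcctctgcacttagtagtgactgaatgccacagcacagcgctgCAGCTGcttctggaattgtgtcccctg
Alox5, chr6:116461129-116461428, minus strand: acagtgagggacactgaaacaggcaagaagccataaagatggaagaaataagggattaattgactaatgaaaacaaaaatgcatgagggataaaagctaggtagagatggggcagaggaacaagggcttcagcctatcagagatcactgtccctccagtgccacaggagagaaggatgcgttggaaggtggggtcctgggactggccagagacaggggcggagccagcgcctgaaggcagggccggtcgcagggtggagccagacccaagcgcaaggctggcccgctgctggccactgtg
The Apod promoter holds both motifs, with GGAAATGAAA 226 bases before the start and CAGCTG 34 bases after it. The Pi16 promoter holds CAGCTG 23 bases after the start, and the Alox5 stretch holds neither. In the other gene annotation, used above for the Cyp7b1 position, Pi16 spans chr17:29317680-29330593. By that annotation the Pi16 stretch lies inside the gene and not at its start. Of 32817 promoters of the same length in the table, 16.3% hold CAGCTG and 2.72% hold the composite. Both motifs were chosen after the sequences were seen. These matches describe letters and say nothing of binding.

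Apod, Cyp7b1, Pi16 and Alox5 were each highest in subcluster 13 of all 16 subclusters, in CPM averaged over mice. These 4 genes were the markers given with the name, and the cells were clustered on all genes, so the contrasts of levels are descriptions without a test. Apod stood at 691, 337 and 496 CPM in mouse 1, 2 and 3 in subcluster 13, against 6.82, 4.28 and 4.05 CPM in all other cells. Cyp7b1 stood at 234, 353 and 177 CPM in subcluster 13, against 2.76, 4.75 and 2.93 CPM in all other cells. Every mouse lay far above every value of the other cells for both genes, with mouse 2 lowest for Apod and highest for Cyp7b1. Pi16 stood at 114, 97.9 and 150 CPM in subcluster 13, against 1.91, 3.05 and 2.16 CPM in all other cells. Alox5 stood at 47.3, 74.5 and 44.8 CPM in subcluster 13, against 0.701, 0.470 and 0.618 CPM in all other cells. Again the groups do not overlap.

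The next subcluster in the order differed from gene to gene. Apod averaged 508 ± 178 CPM in subcluster 13 (SD, n = 3 mice) and 23.6 ± 6.0 CPM in subcluster 0, which makes up most of the rest of the Siglech cluster. Cyp7b1 averaged 255 ± 89.7 CPM in subcluster 13 and 49.1 ± 25.9 CPM in subcluster 12, a small group of the authors' Ifitm1 cluster. Pi16 averaged 121 ± 26.8 CPM in subcluster 13 and 11 ± 1.03 CPM in subcluster 2. Alox5 averaged 55.5 ± 16.5 CPM in subcluster 13 and 1.81 ± 1.12 CPM in subcluster 4, the main group of the Ifitm1 cluster.

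**Figure D1:**
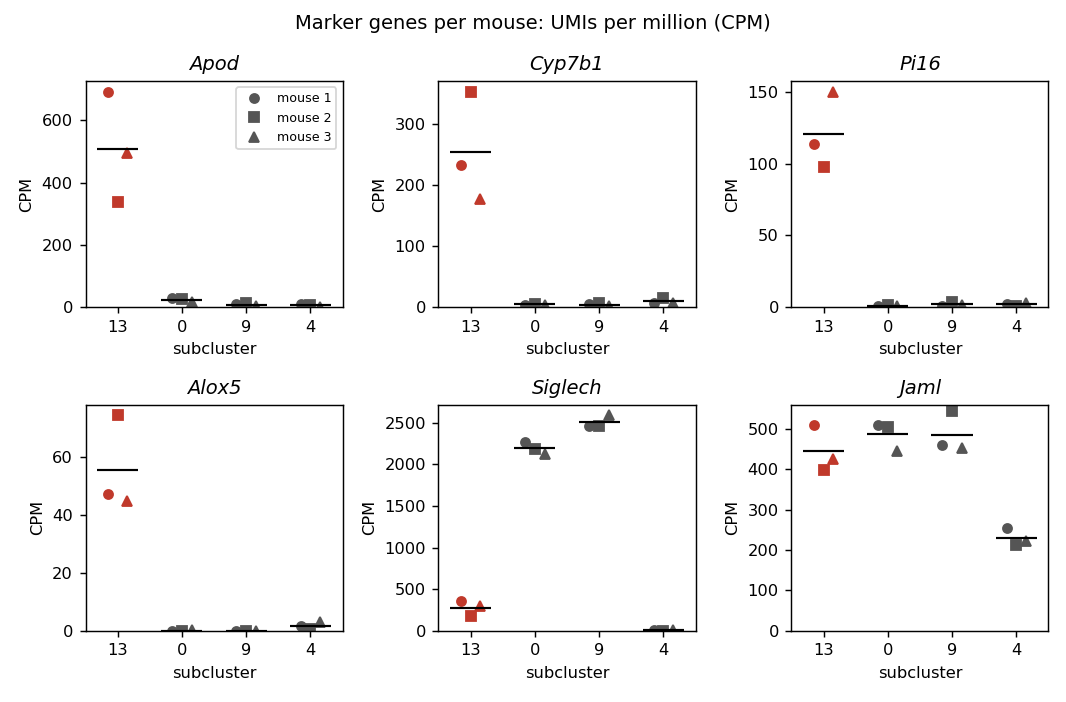
CPM of the 4 marker genes, Siglech and Jaml by mouse (1 symbol per mouse, the line is the mean of 3) in subclusters 13, 0, 9 and 4, each panel with its own axis from 0. For Apod, Cyp7b1, Pi16 and Alox5 all 3 points of subcluster 13 lie above every point of the others, while Siglech in subcluster 13 lies between subcluster 4 and subclusters 0 and 9.

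Apod and Cyp7b1 were detected in most of the 115 cells, and Pi16 and Alox5 in fewer. Apod UMIs were found in 86.1% of cells (95% exact interval 78.4 to 91.8), Cyp7b1 UMIs in 75.7%, Pi16 UMIs in 47.8% and Alox5 UMIs in 29.6%. After each cell was thinned to 7537 UMIs the shares were 75.7% for Apod, 63.5% for Cyp7b1, 39.1% for Pi16 and 16.5% for Alox5, with no cell of subcluster 13 lost. In subcluster 1, a T-cell group with a median of 8550 UMIs per cell, Apod UMIs were found in 0.255% of cells, and in subcluster 4, with a median of 24416 UMIs, in 8.02%. Of the 115 cells, 5 held UMIs of none of the 4 markers, 18 of 1, 44 of 2, 23 of 3 and 25 of all 4. In the rest of the Siglech cluster 1029 of 1202 cells held none, 164 held 1, 9 held 2 and none held more. Among all cells outside subcluster 13, 5340 held none, 465 held 1, 46 held 2, 9 held 3 and 1 held all 4.

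Across all genes, subcluster 13 was then set against all other cells of the same mouse. A gene was counted as higher or lower only if log2 of the CPM ratio, with 5 CPM added to each side, passed 1 in all 3 mice. Of 8046 genes with at least 10 CPM in either class, 222 (2.76%) were higher in subcluster 13 and 520 (6.46%) were lower. Beside the markers, the genes with the largest ratios were Cd209d, Ngfr, Fcgrt, Calm4, Gprc5c, Upk1b, Pros1 and Rab3il1. Cd209d, a C-type lectin of the DC-SIGN family, stood at 603, 1270 and 582 CPM in subcluster 13, against 35.5, 28.8 and 36.6 CPM in all other cells, a mean log2 ratio of 4.32 ± 0.80 (SD, n = 3). Fcgrt, the neonatal Fc receptor that recycles antibody and albumin, stood at 877, 644 and 999 CPM in subcluster 13, against 65.7, 68.9 and 62.7 CPM in all other cells, a mean log2 ratio of 3.56 ± 0.39. Ngfr, the p75 neurotrophin receptor, stood at 87.6, 109 and 94.3 CPM in subcluster 13, against 3.36, 3.85 and 2.29 CPM in all other cells. The Cd209d value of mouse 2 was the highest of the 3. All of these genes were picked for a ratio past the rule in every mouse, so their separation from the other cells is given by the choice.

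The genes furthest below all other cells were led by Lyz2, lysozyme of macrophages, at 69.3 ± 9.13 CPM in subcluster 13 and 2803 ± 844 CPM in all other cells, followed by the chemokine genes Ccl6, Xcl1, Ccl5, Ccl2 and Cxcl2, the helix-loop-helix inhibitor Id2, the T-cell receptor chain Cd3g and the complement gene C1qb. Id2 stood at 25.2, 4.14 and 35.2 CPM in subcluster 13, against 487, 484 and 478 CPM in all other cells.

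Of 4221 genes with at least 30 CPM in subcluster 13, 482 had their highest mean there among the 16 subclusters, 27 by at least 2-fold over the next subcluster and 13 by at least 4-fold. The 2 with the widest margin were Upk1b, a tetraspanin-related uroplakin, and Alox5. Upk1b averaged 41.7 CPM in subcluster 13 and 1.09 CPM in subcluster 0, the next in order. Also among the 27, and named after their values were seen, were Cd209e, Cd200r1 and Slc7a5. Cd209e, a lectin of the same family as Cd209d, stood at 84.2 ± 84.2 CPM, with 181 CPM in mouse 2, 46.3 CPM in mouse 1 and 25.6 CPM in mouse 3. Cd200r1, an inhibitory receptor of myeloid cells, averaged 265 CPM in subcluster 13 and 76.2 CPM in subcluster 4. The amino acid transporter gene Slc7a5 averaged 111 CPM in subcluster 13 and 42.3 CPM in subcluster 9.

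**Figure D2:**
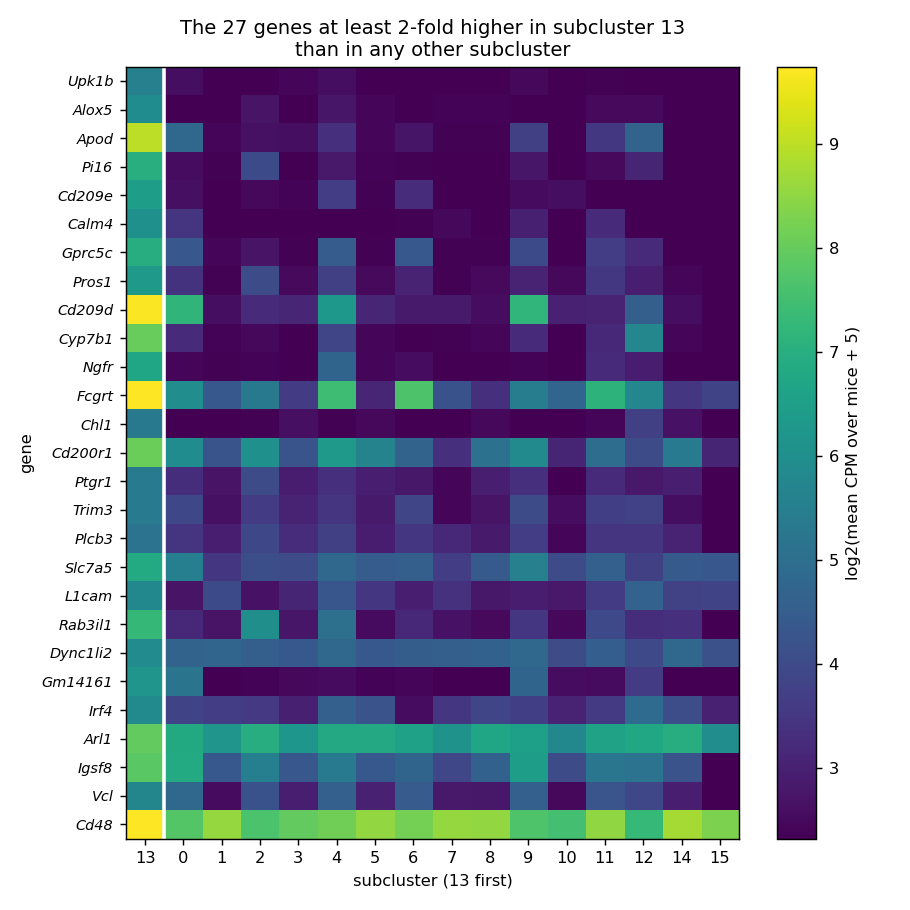
Mean level over mice, as log2(CPM + 5), of the 27 genes whose mean in subcluster 13 was at least 30 CPM and at least 2-fold that of every other subcluster, sorted by that margin, with subcluster 13 in the leftmost column. The genes were chosen on these values, so the bright column is given by the choice; the rows differ in which other subclusters carry a low level, such as 0 and 9 for Cd209d or 4 and 6 for Fcgrt.

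By the shape of the level over the 16 subclusters, the genes most like Apod were Hrh1, the histamine H1 receptor (Pearson r = 0.96 of log2 CPM with 5 added), Cyp7b1 (r = 0.95), Calm4 (r = 0.93), Ankrd13a (r = 0.91) and Upk1b (r = 0.91). The 16 points share 1 library and 1 clustering, so these are descriptions of likeness only. Hrh1 stood at 31.1 CPM over the pooled cells of subcluster 13 and at no more than 2.82 CPM elsewhere.

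The rest of the Siglech cluster was the nearer reference by the authors' naming, and 343 of 7836 genes (4.38%) were higher in subcluster 13 and 367 (4.68%) were lower. S100a4, a calcium-binding protein of motile and myeloid cells, stood at 819, 1543 and 710 CPM in subcluster 13, against 36.2, 26.9 and 24.6 CPM in the rest of the Siglech cluster, a mean log2 ratio of 4.84 ± 0.67. The interferon-induced membrane protein genes Ifitm1, Ifitm2 and Ifitm3 were higher in every mouse as well. Ifitm2 stood at 1093, 1283 and 1648 CPM in subcluster 13, against 48.1, 77.4 and 54.6 CPM in the rest of the Siglech cluster. Also among the 12 largest ratios were Dab2, an endocytic adaptor, Olfm1, Ngfr, Plbd1 and Rab3il1. These genes were picked for passing the rule in every mouse, so the separation of the classes is given by the choice. Some of these summed levels came mostly from part of the cells. The cells of subcluster 13 were split into terciles of their MHC class II level (genes given below). From lower to upper tercile, the median S100a4 level per cell was 62.0, 102 and 1709 CPM, against 0 CPM in subcluster 0. Dab2 UMIs were found in 17.9%, 47.4% and 81.6% of cells in the same order. Ngfr medians were 52.3, 94.8 and 74.7 CPM, so this gene did not peak in the upper tercile.

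Genes that define the plasmacytoid state were far below their level in the rest of the Siglech cluster. Of 16 plasmacytoid marker genes, 15 were measured, 12 were lower and none was higher, beside 4.68% and 4.38% over all 7836 genes. Their median log2 ratio was -3.05, beside -0.03 over all genes. Siglech, a lectin that marks plasmacytoid cells in mouse, stood at 352, 182 and 296 CPM in subcluster 13, against 2310, 2256 and 2212 CPM in the rest of the Siglech cluster. Ly6d, a surface protein of plasmacytoid and lymphoid progenitors, stood at 63.4, 49.7 and 209 CPM in subcluster 13, against 2910, 2892 and 2507 CPM in the rest of the Siglech cluster. Klk1, a kallikrein, stood at 2.01, 5.52 and 17.6 CPM in subcluster 13, against 1272, 1404 and 918 CPM in the rest of the Siglech cluster, and no mouse came near. The chemokine receptor gene Ccr9, the ion pump subunit Atp1b1 and the factor Spib, which partners IRF proteins, were lower in every mouse too. In contrast Tcf4 averaged 1195 ± 82.3 CPM in subcluster 13 and 1736 ± 46.9 CPM in the rest of the Siglech cluster, Runx2 averaged 258 ± 64.7 and 556 ± 34.1 CPM, and Ly6c2 averaged 2074 ± 687 and 2316 ± 361 CPM, and none of these 3 passed the rule.

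The same list stood above its level in subcluster 4. Subcluster 4 had the profile most like that of subcluster 13, with r = 0.92 over 9884 genes beside 0.91 for subcluster 0 and 0.91 for subcluster 9, and it came out most alike in each mouse. Against it 301 of 7639 genes (3.94%) were higher and 279 (3.65%) were lower in subcluster 13, around a median log2 ratio of 0.15 over all genes. TMM scaling moved that median to -0.05 and gave 233 higher and 352 lower, so the higher share of called genes was 39.8% instead of 51.9%. Of the plasmacytoid list 12 were measured, 10 were higher and none was lower, at a median of 3.29. Siglech in subcluster 4 stood at 14.3, 2.19 and 10.1 CPM, and Tcf4 there stood at 74.5, 64.4 and 78.8 CPM, against 1281, 1117 and 1188 CPM in subcluster 13 for Tcf4, so the groups do not overlap. UMIs of Siglech were found in 71.3% of the 115 cells, in 11.3% of cells of subcluster 4 and in 5.35% of the T-cell subcluster 1.

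Markers of transitional dendritic cells showed the opposite balance. Of 9 such genes, all measured, 6 were higher than in the rest of the Siglech cluster and 1 was lower, beside 4.38% and 4.68% over all genes. Their median log2 ratio was 2.68, beside -0.03 over all genes. Against subcluster 4 only 1 was higher and 1 lower, beside 3.94% and 3.65% over all genes. The median there was 0.00, beside 0.15 over all genes. Cx3cr1, the fractalkine receptor, stood at 58.4, 67.6 and 33.6 CPM in subcluster 13, against 0.502, 0.401 and 0.702 CPM in the rest of the Siglech cluster and 3.48, 4.39 and 7.13 CPM in subcluster 4. Cx3cr1 was the only member called higher by the rule against both references, and members above both without passing the rule are not listed here. Zbtb46, a factor of conventional dendritic cells, stood at 51.3, 35.9 and 36.8 CPM in subcluster 13, against 2.26, 2.81 and 1.40 CPM in the rest of the Siglech cluster, and its log2 ratio to subcluster 4 was 0.06. Lgals3, Crip1, Ms4a4c and S100a4 made up the other higher members. Clec12a was the lower one, at 46.7 ± 13.5 CPM in subcluster 13 and 304 ± 14.3 CPM in the rest of the Siglech cluster.

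Genes of type 2 conventional dendritic cells were mixed. Of 9 listed, 7 were measured against the rest of the Siglech cluster, with 3 higher (Cd209a, Irf4 and Ifitm1) and none lower. The shares over all genes were 4.38% and 4.68%. Against subcluster 4, 8 were measured, with none higher and 3 lower (Itgam, Ffar2 and Ifitm1), beside 3.94% and 3.65% over all genes. Clec10a was not called against either, but its mean was highest of the 16 in subcluster 13, at 778 CPM beside 673 CPM in subcluster 4. Cd209a, the mouse DC-SIGN homologue of these cells, stood at 753, 1106 and 470 CPM in subcluster 13, against 85.9, 63.4 and 59.2 CPM in the rest of the Siglech cluster and 1032, 1429 and 1064 CPM in subcluster 4. Mgl2, another lectin, varied most between mice, at 177, 665 and 43.2 CPM in subcluster 13. Irf4 lay above both, at 52.3, 73.1 and 33.6 CPM in subcluster 13, against 17.7, 24.1 and 16.3 CPM in subcluster 4, where it did not pass the rule. The type 1 list had none of 5 measured members called against the rest of the Siglech cluster, and 2 higher after thinning to equal depth.

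The label therefore holds only in part. In the summed cells most measured plasmacytoid genes were higher than in subcluster 4, with Tcf4, Runx2, Ly6c2 and Siglech well above it. Against the rest of the Siglech cluster most were far lower, Siglech among them, while Tcf4, Runx2 and Ly6c2 did not pass the rule. The cells are called the Apod subcluster or subcluster 13 here for that reason. Markers of other cell types were summed too. The summed CPM of the 10 T-cell genes ran from 85.5 to 349 over mice in subcluster 13, against 315 to 364 in the rest of the Siglech cluster. For 12 macrophage genes it ran from 389 to 567 in subcluster 13, against 319 to 398 in the rest of the Siglech cluster. The 8 natural killer genes summed to 113, 23.4 and 87.9 CPM in mouse 1, 2 and 3 in subcluster 13, against 31.0, 25.3 and 31.2 CPM in the rest of the Siglech cluster. The 9 genes of mature migratory dendritic cells summed to 321, 764 and 219 CPM in subcluster 13, against 182, 204 and 176 CPM in the rest of the Siglech cluster. The mature sum was thus higher in all 3 mice and the natural killer sum in mouse 1 and 3. Of the mature list 4 genes were measured and 1, Il4i1, was called, as higher, beside 4.38% higher over all genes. Il4i1 averaged 222 ± 271 CPM in subcluster 13 and made up most of the mature sum in mouse 2 (values per mouse below). Of the natural killer list 1 gene was measured and none was called. The part of these lists in the results was not tested. The fibroblast genes Col1a1 and Sparc the 2 of 9 fibroblast markers with a row, had no UMI in 2344090, which allows up to 1.28 CPM. At least 2 UMIs of Cd3 genes were found in 15 of 115 cells (13%), against 68 of 1202 (5.66%) in the rest of the Siglech cluster, and the 15 had a median of 24157 UMIs, against 19022 in the other cells of subcluster 13. No doublet caller was run. Without the 16 cells that held at least 2 UMIs of Cd3, C1q or Cd79a genes, 302 of the 343 genes higher than in the rest of the Siglech cluster and 336 of the 367 lower ones were still called.

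**Figure D3:**
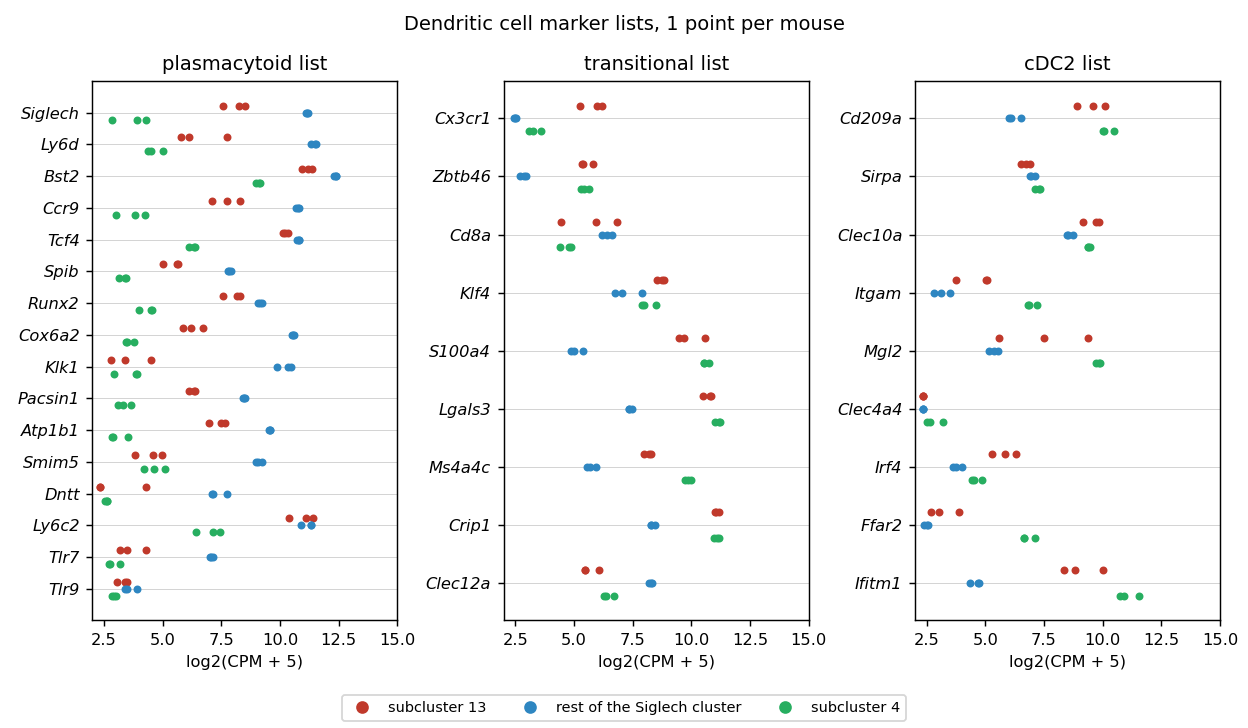
Level per mouse as log2(CPM + 5), 1 point per mouse, of the plasmacytoid, transitional and type 2 conventional dendritic lists in subcluster 13 (red, upper row of each gene), the rest of the Siglech cluster (blue, middle row) and subcluster 4 (green, lower row). Siglech, Ccr9 and Bst2 in subcluster 13 lie between the others, whereas Zbtb46 lies beside subcluster 4.

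**Figure D4:**
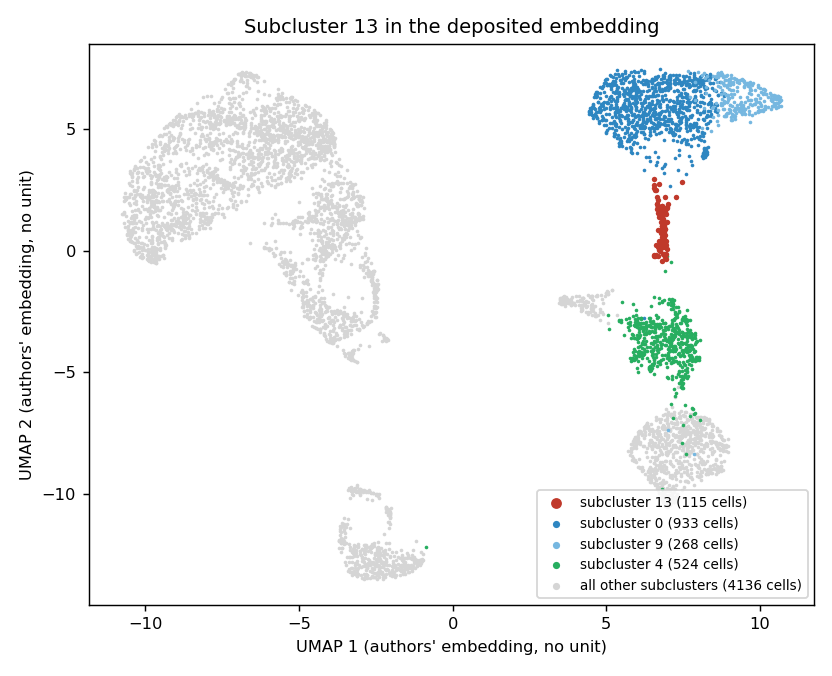
The authors' UMAP embedding (both axes without unit) with the 115 cells of subcluster 13 in red, subclusters 0 and 9 in blue and subcluster 4 in green. The median of the second axis was 0.927 in subcluster 13, between 5.92 in subcluster 0 and -3.71 in subcluster 4.

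Transcription factors of the dendritic lineage split between the references. Against the rest of the Siglech cluster, 5 of 21 measured factors were higher and 3 lower, beside 4.38% and 4.68% over all genes. Against subcluster 4, 6 were higher and 1 lower (3 lower without the 12 cells with the most UMIs), beside 3.94% and 3.65%. Spi1, which encodes PU.1, stood at 444, 528 and 518 CPM in subcluster 13, against 73.0, 74.2 and 65.1 CPM in the rest of the Siglech cluster, and its log2 ratio to subcluster 4 was -0.31. Irf8 averaged 1053 ± 193 CPM in subcluster 13, 3269 ± 78.8 CPM in the rest of the Siglech cluster and 124 ± 4.49 CPM in subcluster 4. In the summed cells Irf8 was thus lower than in one reference and higher than in the other in every mouse. Single cells of subcluster 13 were unlike each other. The median Irf8 level per cell was 2548, 1645 and 32.5 CPM from the lower to the upper tercile of class II level. The Irf8 median was 3277 CPM in subcluster 0 and 65.5 CPM in subcluster 4. Irf4, its relative, averaged 53.0 ± 19.8 CPM in subcluster 13 and 8.95 ± 1.93 CPM in the rest of the Siglech cluster, and subcluster 13 had the highest mean of all 16. Bcl11a averaged 533 ± 39.7 CPM in subcluster 13 and 531 ± 35.0 CPM in the rest of the Siglech cluster, and stood at 64.5 ± 6.95 CPM in subcluster 4. Id2, an inhibitor of E proteins, averaged 21.5 ± 15.8 CPM in subcluster 13 and 277 ± 28.2 CPM in subcluster 4.

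Class II genes in the summed cells were called higher than in the rest of the Siglech cluster or lower than in subcluster 4. Of 11 measured class II genes, 6 were higher than in the rest of the Siglech cluster and none lower, beside 4.38% and 4.68% over all genes. Against subcluster 4 none was higher and 5 were lower, beside 3.94% and 3.65%. H2-Ab1, a class II beta chain, stood at 3540, 5219 and 3437 CPM in subcluster 13, against 1787, 1550 and 1762 CPM in the rest of the Siglech cluster and 11633, 12129 and 12006 CPM in subcluster 4. H2-DMb1, part of the peptide loader, stood at 1105, 1291 and 1248 CPM in subcluster 13, against 273, 266 and 249 CPM in the rest of the Siglech cluster and 1135, 1154 and 1134 CPM in subcluster 4. H2-DMb1 and its partner H2-DMa had their highest mean of the 16 subclusters in subcluster 13, close to subcluster 4. The summed level of H2-Ab1 came mostly from some of the cells. When the 115 cells were split into terciles of their class II level, the median H2-Ab1 level per cell was 116 CPM in the lower, 249 CPM in the middle and 9103 CPM in the upper tercile, against 1105 CPM in subcluster 0 and 1618 CPM in subcluster 9. The count of 6 became 4, with 1 lower, after thinning, 3 without the 16 cells that held UMIs of another lineage (named above), and 3, with 1 lower, without the 12 cells with the most UMIs. Without those 12 cells, 8 class II genes instead of 5 were lower than in subcluster 4. Of 7 measured costimulation genes, 3 were higher than in the rest of the Siglech cluster (Cd40, Icosl and Tnfsf9). Tnfsf9, the 4-1BB ligand, averaged 52.7 ± 13.2 CPM in subcluster 13 and 2.01 ± 0.703 CPM in the rest of the Siglech cluster. The 5 costimulation genes Cd80, Cd86, Cd83, Cd274 and Pdcd1lg2 were lower than in subcluster 4.

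Most genes of nucleic acid sensing and interferon response were not called against either reference, and of those called more were lower than higher. Of 12 measured genes of endosomal sensing, 2 were lower than in the rest of the Siglech cluster, Tlr7 and Tlr12, and none was higher, beside 4.68% lower and 4.38% higher over all genes. Tlr7, the receptor of single-stranded RNA, stood at 6.04, 4.14 and 14.4 CPM in subcluster 13, against 128, 134 and 125 CPM in the rest of the Siglech cluster. Of 16 measured interferon-stimulated genes 1 (Rtp4) was higher and 2 (Ifi44 and Bst2) were lower than in the rest of the Siglech cluster. Against subcluster 4, 7 of 18 were lower and 1 (Bst2) was higher, beside 3.65% lower and 3.94% higher over all genes. Among the lower ones was Cxcl10 at 8.42 ± 3.82 CPM in subcluster 13 and 232 CPM in subcluster 4. No secretory pathway gene other than Xbp1 was called against the rest of the Siglech cluster, where Xbp1, a factor of secretory cells, averaged 409 ± 21.9 CPM, beside 103 ± 15.3 CPM in subcluster 13.

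The lipid pathways of the markers have few measured members, and Cyp7b1 and Alox5, the markers given with the name, count among those called. Of 4 measured oxysterol genes, 2 were higher than in the rest of the Siglech cluster, Cyp7b1 and Gpr183, the receptor that guides cells along oxysterols. Gpr183 stood at 237, 229 and 254 CPM in subcluster 13, against 83.4, 89.5 and 96.4 CPM in the rest of the Siglech cluster. Ch25h, which makes the precursor, had no UMI in subcluster 13. Of 5 measured eicosanoid genes, Alox5 and the leukotriene receptor gene Cysltr1 were higher and Hpgds was lower, beside 4.38% higher and 4.68% lower over all genes. Cysltr1 averaged 71.8 ± 5.12 CPM in subcluster 13 and 4.14 ± 1.32 CPM in the rest of the Siglech cluster. Alox5ap, the partner of 5-lipoxygenase, averaged 896 ± 179 CPM in subcluster 13 and 824 ± 42.6 CPM in the rest of the Siglech cluster, and Ltc4s had no UMI in subcluster 13. None of 15 genes of cholesterol synthesis and uptake was called in either direction against the rest of the Siglech cluster.

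Among protease inhibitors, 4 of 9 measured genes were higher than in the rest of the Siglech cluster and 2 lower, beside 4.38% and 4.68% over all genes. Pi16, Cst3, Cst7 and Serpinb1a were the higher ones, and Slpi and Serpinb6b the lower ones. Slpi, a secreted inhibitor of leukocyte proteases, averaged 68.9 CPM in subcluster 13 and 582 CPM in the rest of the Siglech cluster. Of 6 measured lipid carrier genes, Apod and Fabp5, a fatty acid binding protein, were higher, and Apoe and Ptgds were lower. Apoe, the lipoprotein ligand abundant in macrophages, averaged 11.1 CPM in subcluster 13 and 104 CPM in the rest of the Siglech cluster.

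Trafficking genes differed too. Of 15 measured, Cx3cr1 and Ccr1 were higher than in the rest of the Siglech cluster and Ccr9, Cxcr3, Itgal and Klf2 were lower. Over all genes, 4.38% were higher and 4.68% lower in this comparison. Cxcr3, which follows interferon-induced chemokines, stood at 8.05, 4.14 and 7.99 CPM in subcluster 13, against 115, 105 and 121 CPM in the rest of the Siglech cluster. Outside this list, Flt3, the growth factor receptor of dendritic progenitors, averaged 131 ± 22.3 CPM in subcluster 13, 87.7 ± 4.31 CPM in the rest of the Siglech cluster and 27.7 ± 4.43 CPM in subcluster 4. Jaml itself, on which the cells were sorted, averaged 444 ± 57.2 CPM in subcluster 13, 486 ± 36.2 CPM in the rest of the Siglech cluster and 231 ± 22.2 CPM in subcluster 4, the fourth highest mean of the 16.

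The 115 cells were not uniform. Ranked by the summed CPM of H2-Aa, H2-Ab1, H2-Eb1 and Cd74, they spread from 762 CPM at the 10th percentile to 60353 CPM at the 90th, around a median of 3633 CPM. In subcluster 4 the same percentiles were 41533 and 78588 CPM around a median of 59486 CPM, and in subcluster 0 they were 1621 and 21910 CPM around a median of 9561 CPM. In subcluster 9 the median was 11293 CPM. The median cell of subcluster 13 thus held less class II than that of subclusters 0 and 9, the reverse of the order of the summed H2-Ab1 levels. Siglech ran against this rank, with Spearman rho = -0.70 over the 115 cells and -0.66, -0.72 and -0.77 within mouse 1, 2 and 3. The rank correlations were -0.68 for Ly6c2, -0.66 for Irf8, -0.58 for Ccr9 and -0.57 for Tcf4, and 0.61 for S100a4 and 0.63 for Cyp7b1. The cells share 1 library and differ in depth; after thinning to equal depth rho was -0.63 for Siglech and 0.50 for Cyp7b1.

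The markers of the subcluster did not follow this rank alike. Apod had rho = -0.01 with the class II sum, in mouse 1, 2 and 3 -0.04, 0.04 and -0.02, while Pi16 had 0.38 and Alox5 0.47. Cells were then split into terciles of the class II sum, which are ranges of 1 score and not types; 9 cells lay within 25% of the boundary of the upper tercile. Apod UMIs were found in 92.1% of the 38 cells of the upper tercile, 92.1% of the middle and 74.4% of the 39 cells of the lower. The Apod level was highest in the middle tercile, with a median over cells of 151, 587 and 199 CPM from lower to upper. The mean over cells was 532, 788 and 381 CPM in the same order. Alox5 UMIs were found in 60.5% of the upper tercile and 12.8% of the lower, and Siglech UMIs in 28.9% of the upper and 97.4% of the lower. The median Tcf4 level over cells was 583 CPM in the upper tercile and 1621 CPM in the lower, beside a median of 41.3 CPM in subcluster 4 and 1641 CPM in subcluster 0. Median depth was 22947 UMIs in the upper tercile and 16723 in the lower.

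The terciles were not shared equally among mice. The upper one held 24.5% of the cells of mouse 1, 42.4% of those of mouse 2 and 36.4% of those of mouse 3. In the summed cells, mouse 2 had the highest Cyp7b1, Alox5, Cd209d, Cd209a and H2-Ab1 and the lowest Apod and Siglech of the 3. Il4i1, an amino acid oxidase gene of activated dendritic cells, stood at 71.5, 535 and 59.1 CPM in subcluster 13, against 3.26, 4.41 and 5.44 CPM in the rest of the Siglech cluster, and mouse 2 lay far above the other 2. The part of the tercile shares in these differences was not tested.

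**Figure D5:**
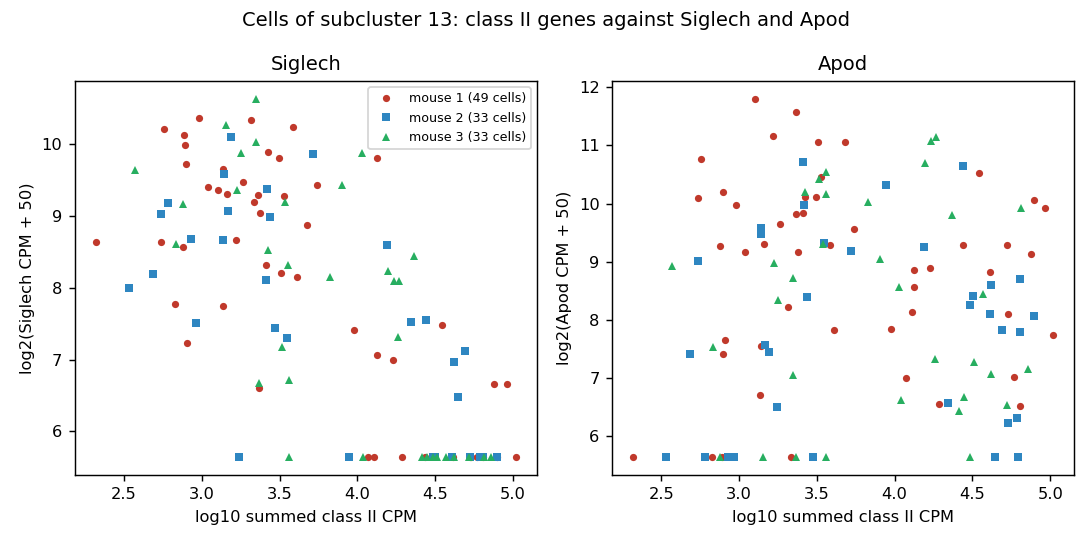
Each point is 1 of the 115 cells, with the log10 of its summed class II CPM on the x axis and log2(CPM + 50) of Siglech (left) or Apod (right) on the y axis, by mouse. Siglech is lowest in cells with high class II, in each mouse, and Apod shows no such slope.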

How the data were processed

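UMI counts were deposited by the authors, unnormalized, for 15416 genes and 5976 cells, with cluster numbers, UMAP and hashtags; annotated totals equalled the matrix in every cell. Per the submitters' processing notes, Cell Ranger 3.1.0, mm10 and Seurat 3.1.5 were used. Filters on cells were not stated; cells hold 1499 to 5999 genes and at most 5% mitochondrial UMIs. The antibody-tag library was not used. The authors' mitochondrial percent per cell was deposited beside the counts. Values per mouse omit 8 cells with no hashtag call, and 0 barcodes repeat. Doublets were not called; whether they were removed before deposit is not given in the sources used here.

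UMIs were summed per mouse and class, scaled to CPM, and compared within each mouse by log2 ratio with 5 CPM added, for genes with at least 10 CPM in either class. Genes named from the comparisons were the 12 with the largest mean ratio per direction and at least 30 CPM in the higher class in every mouse, leaving out receptor and immunoglobulin segments, ribosomal, mitochondrial and unnamed genes; further names come from 35 gene lists. The members and lists were chosen with earlier results of these data known. The cells were clustered on these genes, so no test was run; nothing says the hashtags are separate animals beyond their names. Scripts used Python 3.11.15, R 4.3.3 and edgeR 4.0.16 (scaling factors only) and were checked on simulated data. Alternatives were other scalings, filters, pseudocounts, weighting, thinning and left-out cells and mice. Results of some genes are not reported here.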

Additional observations from a re-analysis of the deposited data

How the results depend on the processing

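Ratios were taken within each mouse, and no test, paired or other, was run on them because the cells were clustered on these genes. Under a call at log2 of 2 in every mouse, the counts were 188 (29 higher, 159 lower) against all other cells, 192 (91 higher, 101 lower) against the rest of the Siglech cluster and 140 (76 higher, 64 lower) against subcluster 4, from 742, 710 and 580. With a filter of 30 CPM the count against all other cells was 481, with 296 lower. Leaving out 1 mouse gave 862 to 894 genes against all other cells, 836 to 865 against the rest of the Siglech cluster and 674 to 721 against subcluster 4. Other scalings, pseudocount, weighting, thinning and removal of 16 cells with UMIs of another lineage or of the 12 deepest cells kept each count within 1.5 times. TMM scaling moved the median log2 ratio to subcluster 4 to -0.05 from 0.15, and the share of higher among called genes to 39.8% (RLE 42.3%) from 51.9%. No called member of any list turned its sign under scaling, thinning or left-out cells. Of 790 recomputed ratios of named genes, 693 moved by less than 1 SD between mice and 97 moved further, and none changed direction. The mean share was 10.0% of the Siglech cluster instead of 2.07% of all cells, and leaving out 1 mouse gave 1.71% to 2.40%. All 4 markers kept their highest mean in subcluster 13 after thinning. The number of cells, 33 in 2 mice, limits genes under a few CPM: 1 UMI is 1.60 CPM in mouse 3. The comparison with subcluster 4 was chosen after seeing the data.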
